A study of Mus musculus with 5 samples.

Results

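Genes of the autophagy pathway and of the lysosome were compared between the striatum of R6/1 mice (n = 2 libraries) and of wild-type (WT) mice (n = 3 libraries). The set holds 43 genes listed by symbol, and all 43 were found among the 26369 genes of the deposited count table. R6/1 mice model Huntington's disease: they carry, as a transgene, exon 1 of the human gene with a CAG repeat of 115 units by the labels, and WT mice carry no transgene. Both groups share a CBA and C57BL/6 background, and the tissue is striatum, where neurons are lost early in the human disease. RNA was total RNA depleted of ribosomal RNA. The age, sex or litter of the mice, the promoter of the transgene, and whether a library stands for 1 animal, is not given in the sources used here. Any p-value therefore reflects the spread among the 5 libraries alone, part or all of which may be technical.

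Macroautophagy encloses cytoplasm, organelles or protein aggregates in a double membrane, the autophagosome, which then fuses with the lysosome. A kinase complex around Ulk1 starts the process, a lipid kinase complex around Becn1 and Pik3c3 marks the membrane, and a conjugation system attaches Atg8 family proteins to it. Cargo receptors bind both the cargo and the Atg8 proteins, and lysosomal hydrolases degrade what is delivered. The kinase mTOR restrains the pathway when nutrients are plentiful, and the transcription factors Tfeb and Tfe3 drive lysosomal and autophagy genes. Neurons rely on the pathway to clear aggregation-prone proteins, among them mutant huntingtin.

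The libraries held 34379064 and 29871306 counts for R6/1 replicates 1 and 2, against 19630036 to 23046266 for the WT replicates. Every R6/1 library was deeper, so depth and genotype cannot be told apart. Levels are given in CPM, counts scaled to a common library total after TMM normalization. All 43 members passed the filter on low counts, the least counted with 958 reads over the 5 libraries. As a check of the tissue, all 10 markers of medium spiny neurons, the main striatal cell type, were detected, with summed levels of 1976 and 2051 CPM in R6/1 and 8348 to 9727 CPM in WT. Fewer cells of a type and less RNA per cell cannot be told apart in bulk tissue. The 12 microglia markers summed to 274 and 303.7 CPM in R6/1 and 281.9 to 320.7 CPM in WT, with none called by the test, and the 9 astrocyte markers to 3454 and 3372 CPM in R6/1 and 4810 to 4975 CPM in WT, with 4 lower and 1 higher in R6/1. The 10 choroid plexus markers, from tissue that borders the striatum, summed to 131 and 48.7 CPM in R6/1, to 3707 and 3631 CPM in WT replicates 1 and 2, and to 100.3 CPM in WT replicate 3. The 9 oligodendrocyte markers summed to 5279 and 5055 CPM in R6/1 and to 7395, 5266 and 7219 CPM in WT replicates 1 to 3, with 4 lower in R6/1. The 8 cortical projection neuron markers summed to 113.1 and 57.95 CPM in R6/1 and to 51.16, 240 and 150.6 CPM in WT, with 0 called. WT replicate 2 thus lay below the other WT libraries in the oligodendrocyte sum. In the cortical sum the WT libraries differed among themselves, with replicate 2 highest and replicate 1 lowest, below both R6/1 libraries. No marker was at 0 in all libraries, and the part of these cell types in the results was not tested. WT replicates 1 and 2 therefore stand apart from the other libraries in choroid plexus RNA, and the called members are also given without them.

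A minority of the autophagy and lysosome genes passed the test. Of the 43 members, 6 were higher in R6/1, 2 were lower and 35 were not called by edgeR's quasi-likelihood test at a Benjamini-Hochberg adjusted p below 0.05. Called members made up 18.6% of the set, and called genes 22.6% of the 17202 genes tested, of which 9.72% were higher and 12.8% lower. The share of called members was therefore near the background, and the calls are described gene by gene. The counts depended on single libraries, and so did the share called over all tested genes. Without WT replicate 1, 3 members were higher and 1 lower, with 15.5% of all tested genes called. The member counts were the same without WT replicate 3, with 14.6% called. Without WT replicate 2 they were 8 and 3, with 28.1% called. With 1 R6/1 library left, fewer members and fewer genes at large were called. Without normalization 13 members were higher and 1 lower, with 28.7% of all tested genes called. The 6 higher members were Gaa, Wdfy3, Sqstm1, Atg7, Ulk1 and Lamp1, and the 2 lower ones were Atg10 and Atg12. The median log2 fold change, R6/1 over WT, was 0.04 over the members and -0.01 over all tested genes. Individual values ran from -0.50 for Atg10 to 0.86 for Gaa. The smallest called change was that of Lamp1, 1.20-fold, and the largest not called that of Atg4b, 1.19-fold. At the median, members varied less between libraries of a group than all tested genes, which were not matched to them for level. The coefficient of variation, the SD as a percentage of the mean, had a median of 3.88% over the members in R6/1 and 4.95% in WT, against 6.92% and 10.5% over all tested genes. The libraries of the groups did not overlap in CPM for 16 members that were higher and 6 that were lower in R6/1, and 27.2% and 26.9% of all tested genes, 54.1% in all, were separated in these directions. In the authors' deposited table, 15 of the 43 members (34.9%) had an adjusted p below 0.05, 12 higher and 3 lower. The share was 20.6% over all 26369 genes in it, of which 17202 passed the count filter used here. All 43 members passed that filter, so the shares rest on unlike sets of genes. Those 15 included the 8 called here, and also Ambra1, Atg2b, Atg4b, Gabarapl2, Mtor, Scarb2 and Tsc1.

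**Figure D1:**
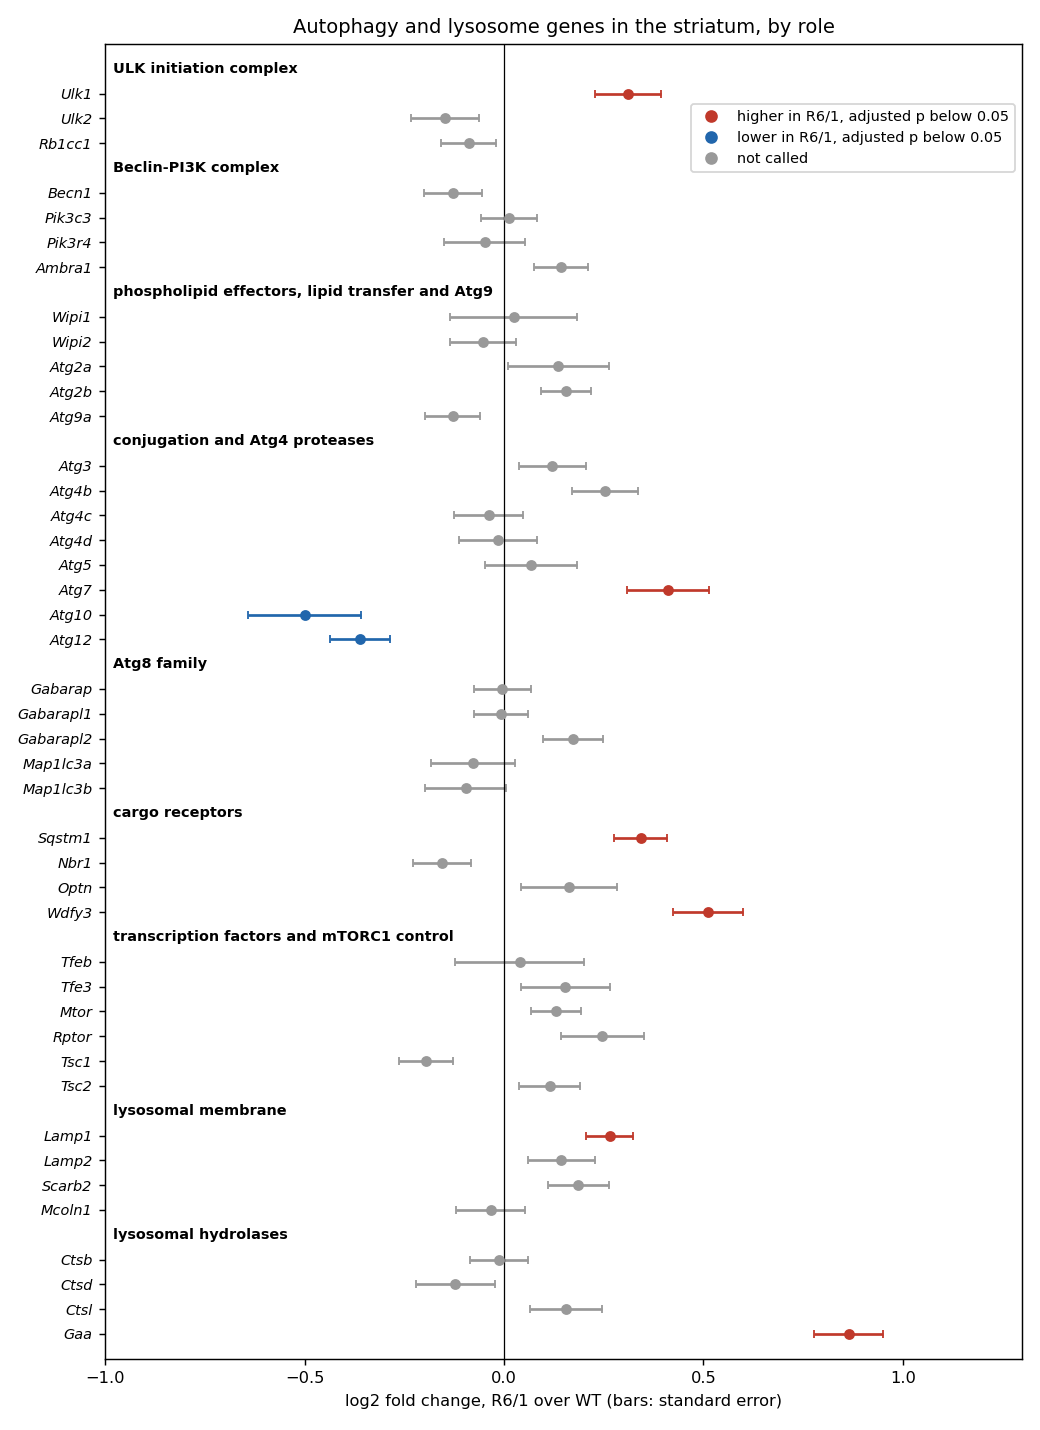
Log2 fold change (R6/1 over WT, horizontal axis) of each of the 43 members, grouped by role, with bars showing the standard error. Gaa stands farthest to the right at 0.86 and Atg10 farthest to the left at -0.50, the 5 Atg8 family genes lie between -0.10 and 0.17, and 35 points are grey because their genes were not called.

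Among the genes that start autophagosome formation, Ulk1 was called higher in R6/1, and Ulk2 and Rb1cc1 were not called. Ulk1, the kinase that receives the mTOR and energy signals, had 39.3 and 36.3 CPM in R6/1 replicates 1 and 2, against 29.7, 30.0 and 31.7 CPM in WT replicates 1 to 3. Both R6/1 libraries lay above every WT library. The fold change was 1.24 (log2 0.31, SE 0.08, adjusted p = 0.0362). When libraries were omitted singly, Ulk1 was still called only without WT replicate 2 (adjusted p = 0.0434). The adjusted p was 0.102 without WT replicate 1, 0.0671 without WT replicate 3, and 0.209 and 0.104 without R6/1 replicates 1 and 2. With WT replicate 3 as the only WT library the log2 fold change was 0.26 (adjusted p = 0.172). Ulk2, a paralogous kinase, averaged 165 ± 7.17 CPM in R6/1 and 183 ± 14.2 CPM in WT (SD, n = 2 and 3), with overlapping libraries (adjusted p = 0.248). Rb1cc1, the FIP200 scaffold of the complex, averaged 247 ± 8.90 CPM in R6/1 and 262 ± 11.4 CPM in WT (adjusted p = 0.389).

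No member of the Beclin and PI3-kinase complex was called by edgeR with TMM and all libraries, and none had an unadjusted p below 0.05. DESeq2 and limma-voom as run here also called none of them, while the authors' deposited adjusted p was below 0.05 for Ambra1. Becn1, the scaffold of the complex, had 112 and 124 CPM in R6/1 replicates 1 and 2 and 131, 127 and 128 CPM in WT replicates 1 to 3. Its R6/1 libraries both lay below the WT libraries, by a log2 difference of -0.13 with a 95% interval of -0.30 to 0.04 (adjusted p = 0.247). Pik3c3, the lipid kinase Vps34, was the closest to equal, at 77.1 ± 0.522 CPM in R6/1 and 76.5 ± 1.89 CPM in WT, with an interval of -0.15 to 0.18 for the log2 difference. Its regulatory subunit Pik3r4 and the Beclin-binding regulator Ambra1 had log2 fold changes of -0.05 and 0.14. Without normalization Ambra1 was called (log2 0.26, adjusted p = 0.0288). In GENCODE M21, exons of Becn1 overlap those of Cntd1 on the opposite strand, whose level was 1.92 CPM in R6/1 and 1.25 CPM in WT. Which strand setting the counting used is not given in the sources used here.

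Genes that act after the lipid kinase were not called either, although Atg2b had an unadjusted p below 0.05. Wipi2, which binds the lipid mark and recruits the conjugation machinery, had 132 and 142 CPM in R6/1 replicates 1 and 2 and 147, 132 and 149 CPM in WT replicates 1 to 3. These values overlapped, with a 95% interval of -0.25 to 0.14 for the log2 fold change (adjusted p = 0.676). Its relative Wipi1 was counted far less, at 14.1 ± 3.12 CPM in R6/1 and 13.9 ± 0.845 CPM in WT. Atg2a and Atg2b encode proteins that carry lipid into the growing membrane. Atg2b had 166 and 168 CPM in R6/1 and 152, 148 and 149 CPM in WT, so that the groups were separate although the adjusted p was 0.120, and it was called without normalization (adjusted p = 0.0191). Atg9a, a lipid scramblase on the vesicles that seed the membrane, was separate in the other direction, with 71.7 and 69.3 CPM in R6/1 and 76.9, 77.7 and 76.7 CPM in WT (adjusted p = 0.219).

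The conjugation system held the 2 members that were lower in R6/1 and 1 that was higher. Atg12 is a small ubiquitin-like protein, Atg7 is the E1-like enzyme that activates both Atg12 and the Atg8 proteins, and Atg10 is the E2-like enzyme that passes Atg12 to Atg5. Atg12 had 53.4 CPM in both R6/1 libraries, against 65.9, 71.6 and 68.3 CPM in WT replicates 1 to 3. It was 1.28-fold lower in R6/1 (log2 -0.36, SE 0.08, adjusted p = 0.0163). Atg12 was no longer called when R6/1 replicate 1 (adjusted p = 0.109) or 2 (adjusted p = 0.111) was omitted, and was still called without each WT library. Atg10 had 7.60 and 7.84 CPM in R6/1, against 11.5, 9.90 and 11.3 CPM in WT. It was the least counted of the called members and was 1.41-fold lower in R6/1 (log2 -0.50, SE 0.14, adjusted p = 0.0435). That call was kept only without WT replicate 2 (adjusted p = 0.0288), with an adjusted p of 0.103 and 0.110 without WT replicates 1 and 3 and of 0.196 and 0.175 without R6/1 replicates 1 and 2. It was also lost without a filter on low counts and without normalization, while its fold change stayed below 0 in all 12 alternatives. Atg7 moved the other way, with 19.2 and 19.8 CPM in R6/1 and 14.2, 15.4 and 14.4 CPM in WT. It was 1.33-fold higher in R6/1 (log2 0.41, SE 0.10, adjusted p = 0.0294). The Atg7 call, like that of Atg10, was kept only without WT replicate 2 (adjusted p = 0.0216), and the adjusted p was 0.0794 and 0.0822 without WT replicates 1 and 3 and 0.133 and 0.165 without R6/1 replicates 1 and 2.

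The other 5 genes of the conjugation system were not called. Atg5, to which Atg12 is joined, averaged 27.9 ± 0.290 CPM in R6/1 and 26.7 ± 3.35 CPM in WT. Atg3, the E2-like enzyme of the Atg8 proteins, averaged 38.7 ± 0.396 CPM in R6/1 and 35.6 ± 2.08 CPM in WT. The Atg4 proteases trim the Atg8 proteins before conjugation and release them afterwards. Atg4b had 58.2 and 62.7 CPM in R6/1 and 50.7, 53.5 and 48.0 CPM in WT, with separate groups and an adjusted p of 0.0696. Atg4c and Atg4d had log2 fold changes of -0.04 and -0.02 with overlapping libraries. Exons of Atg4d overlap those of Kri1 on the opposite strand in GENCODE M21, at 30 CPM in R6/1 and 23.1 CPM in WT. DESeq2 called Atg4b, and edgeR called it without WT replicate 2 or without normalization.

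**Figure D2:**
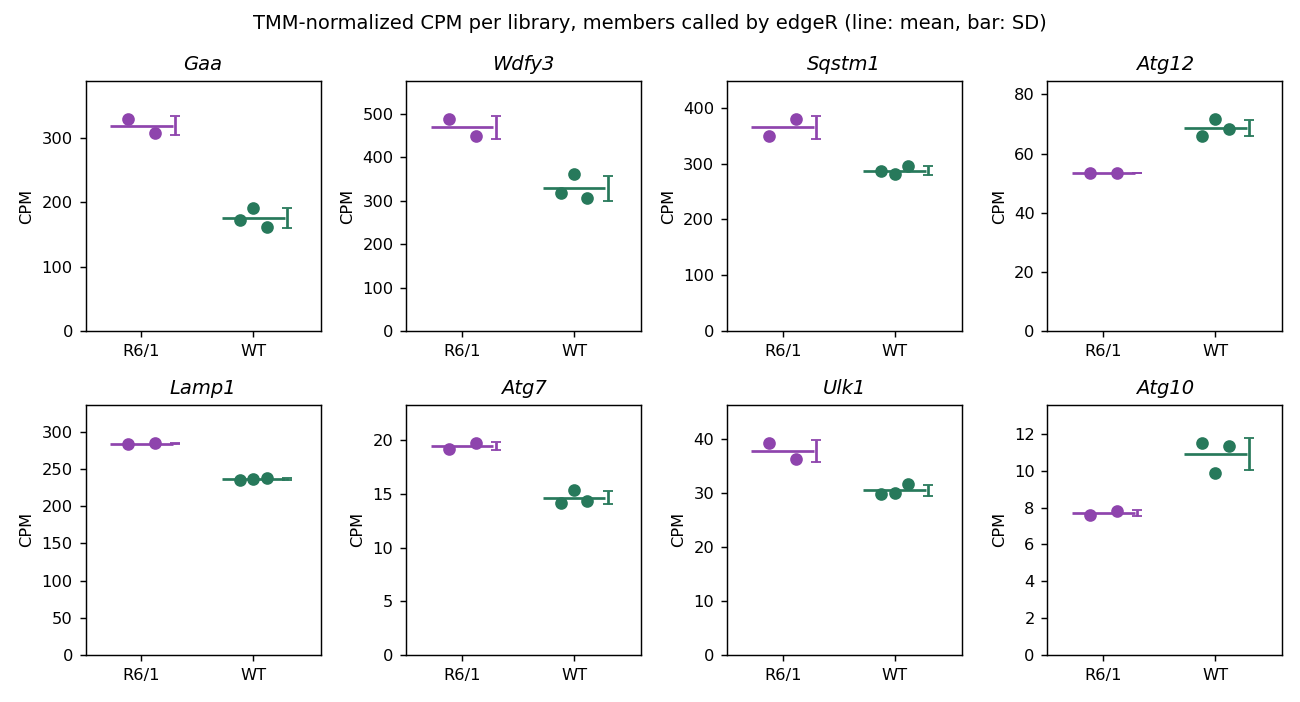
CPM in each library (points) for the 8 called members, R6/1 at the left and WT at the right of each panel, with the mean as a line and the SD as a bar. In every panel the R6/1 and WT points are separate, above WT for Gaa, Wdfy3, Sqstm1, Lamp1, Atg7 and Ulk1 and below WT for Atg12 and Atg10.

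The Atg8 family, the proteins attached to the autophagosome membrane, held no called member. None of the 5 was called by edgeR with TMM, or by limma-voom or DESeq2 as run here, and none had an unadjusted p below 0.05 in edgeR. The authors' deposited adjusted p was below 0.05 for Gabarapl2 alone of the 5. Gabarapl1 had 499 and 515 CPM in R6/1 replicates 1 and 2 and 490, 537 and 503 CPM in WT replicates 1 to 3. The 95% interval of its log2 fold change was -0.17 to 0.15 (adjusted p = 0.942). Gabarap averaged 83.7 ± 4.49 CPM in R6/1 and 84.0 ± 1.14 CPM in WT, with an interval of -0.17 to 0.17. The genes of the LC3 proteins used to count autophagosomes by microscopy and blot, Map1lc3a and Map1lc3b, had intervals of -0.32 to 0.17 and -0.34 to 0.14. Over 58 bases, exons of Map1lc3b overlap those of Zcchc14 on the opposite strand, at 120 CPM in R6/1 and 124 CPM in WT. Gabarapl2 alone had separate groups, at 88.2 and 94.98 CPM in R6/1 and 78.4, 80.8 and 84.4 CPM in WT (adjusted p = 0.138), and it was called without normalization. Its share of the family, in CPM per kb with the gene lengths of the deposited table, was 20.3 ± 0.382% in R6/1 and 18.2 ± 0.638% in WT. Gabarapl1 made up 47.7 ± 0.568% of the family in R6/1 and 48.5 ± 0.959% in WT. With the longer exon lengths of GENCODE M21, a choice made after the data were seen, the Gabarapl1 share was 65.2% in R6/1 and 65.6% in WT, so the shares depend on the length used while the groups stayed close.

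**Figure D3:**
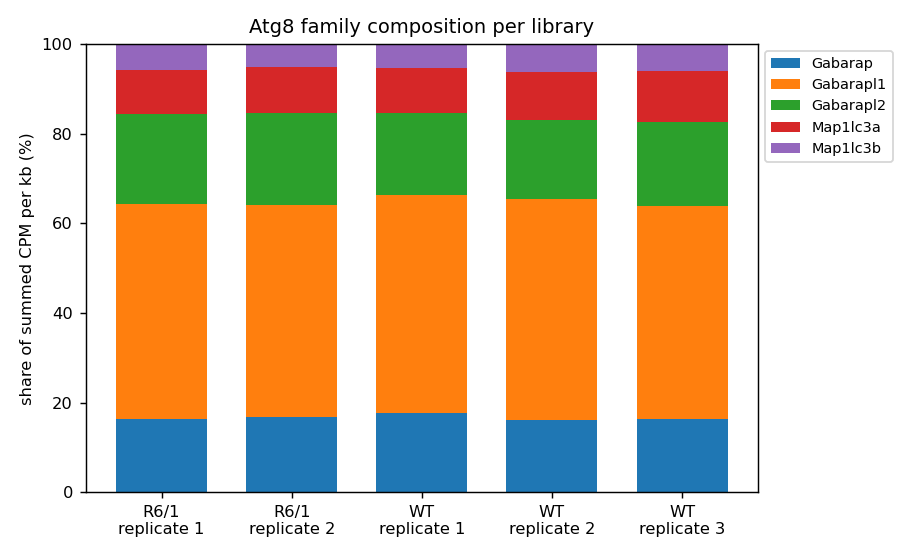
Share of each Atg8 family gene in the summed CPM per kb of the family (vertical axis, percent), per library. Gabarapl1 takes between 47.3% and 48.1% in the R6/1 bars and between 47.4% and 49.3% in the WT bars, and Gabarapl2 is at 20.03% and 20.57% in R6/1 against 17.5% to 18.76% in WT.

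Of the 4 cargo receptors, Wdfy3 and Sqstm1 were higher in R6/1. Wdfy3 encodes the large adaptor Alfy, which links protein aggregates to the autophagy machinery. It had 488 and 450 CPM in R6/1 replicates 1 and 2, against 317, 362 and 308 CPM in WT replicates 1 to 3. It was 1.43-fold higher in R6/1 (log2 0.51, SE 0.09, adjusted p = 0.00797). The call was kept without each library in turn, except without R6/1 replicate 1 (adjusted p = 0.0754). With WT replicate 3 as the only WT library the log2 fold change was 0.61 (adjusted p = 0.00316), and with choroid plexus markers as a covariate it was 0.62 (adjusted p = 0.0242). Sqstm1 encodes p62, the receptor that gathers ubiquitinated proteins and is itself degraded by autophagy. It had 350 and 380 CPM in R6/1, against 286, 281 and 296 CPM in WT. It was 1.27-fold higher in R6/1 (log2 0.34, SE 0.07, adjusted p = 0.0129). Without R6/1 replicate 1 or 2 the adjusted p was 0.0512 or 0.114, and without WT replicates 1 to 3 it was 0.0365, 0.0163 and 0.0349. GENCODE M21 places the exons of Mrnip over those of Sqstm1 on the opposite strand, at 6.16 CPM in R6/1 and 5.90 CPM in WT, and the antisense Gm20548 over Wdfy3, at 0.207 CPM in R6/1 and 0.107 CPM in WT.

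The other cargo receptors did not pass. Nbr1, which works beside p62, had 288 and 307 CPM in R6/1 and 339, 313 and 344 CPM in WT, separate in the direction opposite to Sqstm1 (log2 -0.16, adjusted p = 0.160). Optn, a receptor for damaged mitochondria and aggregates, was at 16.8 CPM in both R6/1 libraries and at 14.4, 14.0 and 16.6 CPM in WT (adjusted p = 0.364).

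None of the 6 regulators was called by edgeR with TMM and all libraries, or by limma-voom or DESeq2 as run here. However, 2 of them, Tsc1 and Rptor, had an unadjusted p below 0.05 in edgeR. The authors' deposited adjusted p was below 0.05 for Mtor and Tsc1. Mtor, the kinase of mTORC1, had 182 and 187 CPM in R6/1 and 171, 169 and 166 CPM in WT. Its R6/1 libraries lay above the WT libraries by a log2 difference of 0.13 with an interval of -0.02 to 0.28 (adjusted p = 0.176). Rptor, the mTORC1 subunit that binds substrates, had 88.9 and 78.2 CPM in R6/1 and 66.5, 78.4 and 66.5 CPM in WT (adjusted p = 0.129), and WT replicate 2 overlapped the R6/1 libraries. Tsc1, which with Tsc2 inhibits mTORC1, had 149 and 144 CPM in R6/1 and 171, 162 and 170 CPM in WT, separate below WT (adjusted p = 0.0753). Rptor and Tsc1 were called without WT replicate 2, and Mtor (adjusted p = 0.0259) and Rptor (adjusted p = 0.0369) without normalization. Tsc2 averaged 92.0 ± 2.49 CPM in R6/1 and 85.0 ± 4.60 CPM in WT (adjusted p = 0.315). Its exons overlap those of Pkd1 on the opposite strand in GENCODE M21, at 297 CPM in R6/1 and 291 CPM in WT. The transcription factors of lysosomal genes were little counted. Tfeb averaged 7.41 ± 0.288 CPM in R6/1 and 7.21 ± 0.871 CPM in WT, with an interval of -0.34 to 0.42, and Tfe3 averaged 21.3 ± 1.92 CPM in R6/1 and 19.1 ± 1.35 CPM in WT.

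Among the 8 lysosomal genes, Gaa and Lamp1 were higher in R6/1 and the 3 cathepsins were not called. Gaa encodes acid alpha-glucosidase, which breaks down glycogen in the lysosome and is deficient in Pompe disease. It had 329 and 308 CPM in R6/1 replicates 1 and 2, against 173, 192 and 161 CPM in WT replicates 1 to 3. The lowest R6/1 library was far above the highest WT library. The fold change of 1.82 had a 95% interval of 1.58 to 2.10 (log2 0.86, SE 0.09, adjusted p = 0.00105). It was the one member called under all 12 alternatives, with a log2 fold change of 0.81 to 0.99 and an adjusted p of at most 0.0168. With WT replicate 3 as the only WT library its log2 fold change was 0.99 (adjusted p = 0.000473). Lamp1, a major glycoprotein of the lysosomal membrane, had 284 and 285 CPM in R6/1, against 236, 237 and 238 CPM in WT. It was 1.20-fold higher in R6/1 (log2 0.26, SE 0.06, adjusted p = 0.0203), with the least spread within the groups of the 6 higher members. The Lamp1 call was kept only without WT replicate 2 (adjusted p = 0.0203), and the adjusted p was 0.0567 and 0.0665 without WT replicates 1 and 3 and 0.114 and 0.125 without R6/1 replicates 1 and 2. Exons of Lamp1 overlap those of Grtp1 on the opposite strand in GENCODE M21, at 4.0 CPM in R6/1 and 3.03 CPM in WT.

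The remaining lysosomal members did not pass. Scarb2, the receptor that carries glucocerebrosidase to the lysosome, had 109 and 108 CPM in R6/1 and 98.7, 89.3 and 98.6 CPM in WT (adjusted p = 0.117). Lamp2, a second membrane glycoprotein, had 124 and 122 CPM in R6/1 and 116, 116 and 101 CPM in WT (adjusted p = 0.258). Both were separate above WT without being called, and without normalization Scarb2 was called (adjusted p = 0.0235). Mcoln1, the calcium-conducting channel of the lysosomal membrane, had a log2 fold change of -0.03 with an interval of -0.24 to 0.17. The cathepsins are the main lysosomal proteases. Ctsb averaged 344 ± 29.1 CPM in R6/1 and 347 ± 4.56 CPM in WT, with an interval of -0.18 to 0.16, and overlaps on the opposite strand Fdft1, which was at 35.5 CPM in R6/1 and 77.3 CPM in WT. Ctsd, the aspartic protease, averaged 263 ± 3.62 CPM in R6/1 and 286 ± 32.7 CPM in WT, and Ctsl averaged 92.2 ± 2.49 CPM in R6/1 and 82.7 ± 7.40 CPM in WT. The spread of Ctsd in WT, 252 to 318 CPM, was wider than its difference between the groups.

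Promoters of lysosomal genes often hold an E-box with the core CACGTG, within a longer palindrome bound by TFEB and TFE3 in human and mouse cells. The 250 bases before the start of the gene were read from RefSeq (GRCm38.p6) for the 36 members with an entry, which have 41 promoters there. A gene was counted where any of its promoters held the letters. The core CACGTG was found in 8 of the 36 members, or 22.2%, and in 6.86% of all 27025 genes with a promoter there. Those 27025 genes were not limited to the genes tested here or matched to the members, so the shares rest on unlike sets. The members also include lysosomal genes, for which this E-box was known beforehand. TCACGTGA, which contains the core, was found in 3 of the 36, Atg3, Ctsd and Mcoln1, and in 0.907% of all genes. With G before and C after TCACGTGA, it was found in 0 of the 36 and in 0.270% of all genes. Each motif is its own reverse complement, so 1 strand covers both. Of the 6 called members with an entry, 3 held the core, and of the 30 others 5 did. Those 3 were Gaa, Lamp1 and Atg7, the last at a start 27969 bases inside the outermost start of its gene. A match is a description of these letters and does not show a bound site. Promoters of the 2 called lysosomal genes, Gaa and Lamp1, and of 2 that were not called, Ctsd and Mcoln1, are shown to compare their E-boxes, with each CACGTG in capitals, 5′ to 3′.
Gaa (chr11:119267713-119267962, plus strand): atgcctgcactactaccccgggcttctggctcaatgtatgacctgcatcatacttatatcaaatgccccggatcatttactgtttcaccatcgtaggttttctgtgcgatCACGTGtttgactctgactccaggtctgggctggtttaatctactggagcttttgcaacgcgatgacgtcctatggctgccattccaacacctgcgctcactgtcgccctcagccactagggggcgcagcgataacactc
Lamp1 (chr8:13158911-13159160, plus strand): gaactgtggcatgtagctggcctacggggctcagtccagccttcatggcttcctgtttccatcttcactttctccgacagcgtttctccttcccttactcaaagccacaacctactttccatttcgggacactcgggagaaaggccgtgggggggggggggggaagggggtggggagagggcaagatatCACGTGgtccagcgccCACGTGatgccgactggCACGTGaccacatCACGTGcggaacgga
Ctsd (chr7:142387828-142388077, minus strand): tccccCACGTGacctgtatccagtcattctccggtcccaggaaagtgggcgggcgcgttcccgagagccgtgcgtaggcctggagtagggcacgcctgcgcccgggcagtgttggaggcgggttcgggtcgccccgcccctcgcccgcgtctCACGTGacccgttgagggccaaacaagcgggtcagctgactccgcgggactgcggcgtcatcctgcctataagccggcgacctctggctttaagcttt
Mcoln1 (chr8:3500269-3500518, plus strand): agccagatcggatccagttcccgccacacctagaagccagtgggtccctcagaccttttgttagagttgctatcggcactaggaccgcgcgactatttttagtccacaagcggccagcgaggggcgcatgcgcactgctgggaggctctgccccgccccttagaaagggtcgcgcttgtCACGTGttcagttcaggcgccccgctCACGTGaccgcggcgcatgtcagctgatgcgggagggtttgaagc
Gaa held 1 core, Lamp1 4, and Ctsd and Mcoln1 2 each.

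Levels between genes were compared per kb of gene length. Sqstm1 and Gaa stood highest among the members in R6/1, at 383 and 358 CPM per kb, followed by Gabarapl1 at 287. In WT, Sqstm1 was at 302 CPM per kb, Gabarapl1 at 289, Rb1cc1 at 228 and Gaa at 197. These lengths, read from the deposited table, are short for some genes, such as 0.890 kb for Gaa. With GENCODE M21 exon lengths Gaa was at 66.7 CPM per kb in R6/1 and 36.6 CPM per kb in WT, ranking 5 of the 43 in R6/1 and 9 in WT, and Gabarapl1 ranked 1 in both groups. The order among genes therefore depends on the length used, while differences between the groups do not.

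Other genes of the pathway, listed apart from the members, were called about as often as genes at large. Of 153 tested, 19 were higher in R6/1, 11 were lower and 123 were not called, so that 19.6% were called against 22.6% of all tested genes, and their median log2 fold change was 0.03. Of 30 such calls, 13 were kept without WT replicate 1, 30 without WT replicate 2, 17 without WT replicate 3, and 4 and 6 without R6/1 replicates 1 and 2. Omitting both WT libraries rich in choroid plexus markers kept 17, and using those markers as a covariate kept 10. The 4 genes called without each library in turn were Rragd, Deptor, Bnip3 and Atp6v1d, all lower in R6/1.

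**Figure D4:**
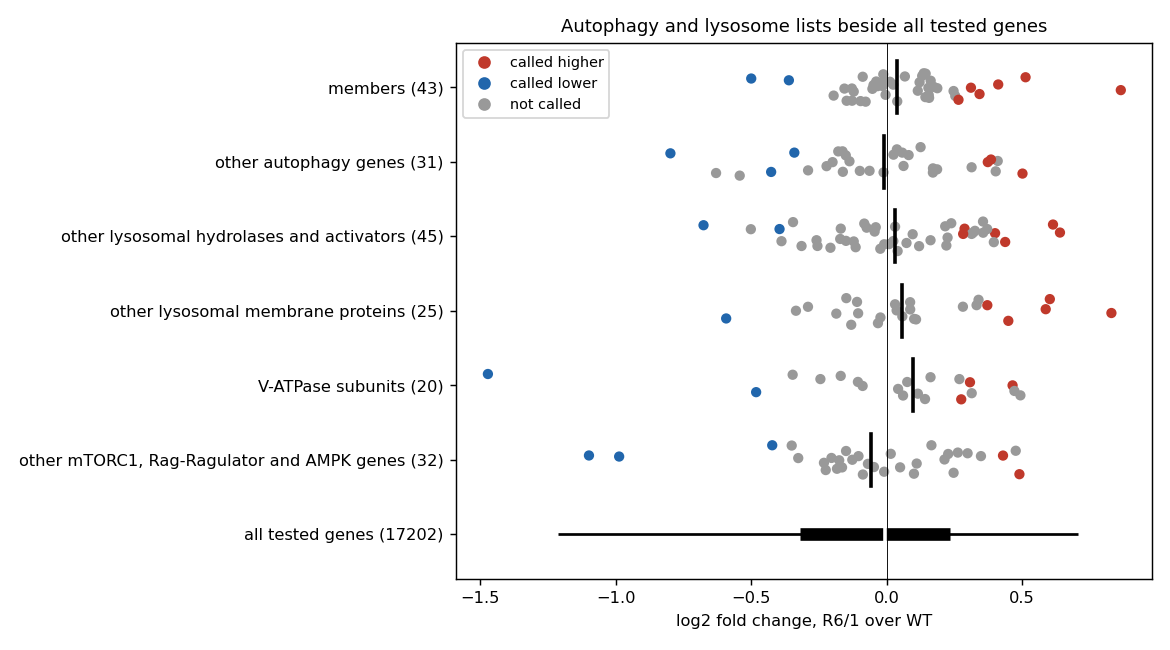
Log2 fold changes (R6/1 over WT) of the tested members and of 5 other lists, 1 point per gene, with the number of genes in brackets and the median of each list as a black line. The bottom bar shows all 17202 tested genes, with the thick part from the 25th to the 75th percentile (-0.32 to 0.23) and the thin line from the 5th to the 95th (-1.21 to 0.71); the list medians lie between -0.06 and 0.10.

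Of 32 genes of mTORC1, the Rag and Ragulator proteins and AMPK, 2 were higher in R6/1, 3 were lower and 27 were not called. Rragd, one of the Rag GTPases that bring mTORC1 to the lysosome, had 190 and 203 CPM in R6/1, against 417, 418 and 426 CPM in WT. It was 2.14-fold lower in R6/1 (log2 -1.10, SE 0.07, adjusted p = 0.000146). Deptor, an mTOR-binding inhibitor, had 18.1 and 18.9 CPM in R6/1, against 33.7, 38.5 and 37.9 CPM in WT, and was 1.98-fold lower (adjusted p = 0.000929). Rragd and Deptor were called under all 12 alternatives. Rragb, another Rag GTPase, was higher in R6/1 (log2 0.49) at 85.5 ± 1.39 CPM, against 60.9 ± 3.75 CPM in WT (adjusted p = 0.00676). Depdc5, of the GATOR1 complex that restrains mTORC1, was at 80.7 ± 0.447 CPM in R6/1 and 59.9 ± 2.30 CPM in WT (adjusted p = 0.00782). Neither passed once R6/1 replicate 1 (adjusted p = 0.0533 for Rragb and 0.0684 for Depdc5) or 2 (adjusted p = 0.0632 and 0.0638) was omitted.

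Of 31 other autophagy genes, 3 were higher in R6/1, 3 were lower and 25 were not called. Bnip3, a receptor for the removal of mitochondria, had 51.3 and 58.5 CPM in R6/1, against 96.8, 91.7 and 97.9 CPM in WT. It was 1.74-fold lower (log2 -0.80, SE 0.09, adjusted p = 0.00138) and was called under all 12 alternatives. Wdr41 and Smcr8, partners in 1 complex with the C9orf72 protein, were both higher in R6/1. Wdr41 was at 43.7 ± 0.238 CPM in R6/1 and 30.9 ± 1.11 CPM in WT (adjusted p = 0.00550), and it was no longer called when R6/1 replicate 1 (adjusted p = 0.0519) or 2 (adjusted p = 0.0503) was omitted. Smcr8 was at 86.9 ± 1.43 CPM in R6/1 and 66.6 ± 6.13 CPM in WT (adjusted p = 0.0261), and Atg101, a subunit of the Ulk1 complex, at 15.9 ± 1.54 CPM in R6/1 and 21.3 ± 1.09 CPM in WT (adjusted p = 0.0331). The last 2 calls were kept only without WT replicate 2, with an adjusted p of up to 0.142 for Smcr8 and 0.204 for Atg101 without each of the other libraries.

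Of 45 other lysosomal hydrolases and activators, 6 were higher in R6/1, 2 were lower and 37 were not called. Gusb, a beta-glucuronidase, was at 12.9 ± 0.228 CPM in R6/1 and 8.24 ± 0.895 CPM in WT (adjusted p = 0.0203), and Ids, an iduronate sulfatase, at 336 ± 32.0 CPM in R6/1 and 248 ± 30.5 CPM in WT (adjusted p = 0.0320). The peptidases Dpp7 and Cpq were lower in R6/1. Dpp7 was at 19.1 ± 0.202 CPM in R6/1 and 25.2 ± 1.11 CPM in WT (adjusted p = 0.0220), and Cpq at 11.9 ± 0.695 CPM in R6/1 and 19.1 ± 3.57 CPM in WT (adjusted p = 0.0312). All 4 calls were lost without R6/1 replicate 1 or 2. The highest adjusted p with 1 library left out was 0.121 for Gusb, 0.195 for Ids, 0.134 for Dpp7 and 0.175 for Cpq. Gusb was also lost without WT replicate 3, Dpp7 and Cpq without WT replicate 1, and Ids without WT replicate 1 or 3.

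Of 25 other lysosomal membrane genes, 5 were higher in R6/1, 1 was lower and 19 were not called. Npc1, which exports cholesterol from the lysosome, was at 115 ± 0.380 CPM in R6/1 and 84.2 ± 7.04 CPM in WT (adjusted p = 0.0117). Cln3, mutated in a juvenile neuronal storage disease in humans, was at 17.1 ± 0.0649 CPM in R6/1 and 11.4 ± 0.730 CPM in WT (adjusted p = 0.0135). Neither passed once R6/1 replicate 1 (adjusted p = 0.0830 for Npc1 and 0.0933 for Cln3) or 2 (adjusted p = 0.0812 and 0.0908) was omitted. Laptm5, known from cells of the immune system, had 14.8 and 12.0 CPM in R6/1 and 7.21, 8.53 and 6.86 CPM in WT (adjusted p = 0.0132), beside the microglia marker sums above, whose part in this was not tested. Abcb9, a lysosomal peptide transporter, was lower in R6/1, at 37.0 ± 2.75 CPM against 55.8 ± 4.62 CPM in WT (adjusted p = 0.00785). Without R6/1 replicate 1 the adjusted p was 0.112 for Laptm5 and 0.0789 for Abcb9.

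Of 20 tested subunits of the V-ATPase, the pump that acidifies the lysosome, 3 were higher in R6/1, 2 were lower and 15 were not called. Atp6v1d, of the catalytic part, had 142 and 149 CPM in R6/1, against 204, 199 and 205 CPM in WT. It was lower in R6/1 (log2 -0.48, SE 0.07, adjusted p = 0.00340) and was called under all 12 alternatives. Atp6ap1, an accessory subunit, was higher at 263 ± 12.1 CPM in R6/1 and 218 ± 7.58 CPM in WT (adjusted p = 0.0289), and Atp6v0a1, of the membrane part, at 370.1 ± 30.4 CPM in R6/1 and 268 ± 43.3 CPM in WT (adjusted p = 0.0405). Both calls were kept only without WT replicate 2, with an adjusted p of up to 0.189 and 0.215 without each of the other libraries. Atp6v1c2 had 0.888 and 1.15 CPM in R6/1 and 3.45, 3.32 and 1.71 CPM in WT (adjusted p = 0.0285), so the WT libraries with high choroid plexus markers also held the higher levels. With those markers as a covariate, Atp6ap1 (adjusted p = 0.154), Atp6v0a1 (adjusted p = 0.0589) and Atp6v1c2 (adjusted p = 0.212) were no longer called. Atp6v1c2 was also lost without WT replicate 1 (adjusted p = 0.0704) or R6/1 replicate 1 (adjusted p = 0.167) or 2 (adjusted p = 0.110).

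The called members were also compared without WT replicates 1 and 2, which stood apart in choroid plexus markers. Another comparison used those markers as a covariate. The covariate, their centred mean log2 level, was 1.97 and 2.18 in WT replicates 1 and 2. It was -1.38 in WT replicate 3 and -1.03 and -1.75 in R6/1. Both comparisons therefore rest largely on WT replicate 3 against R6/1 and are not independent checks. With the covariate, Gaa and Wdfy3 were still called and the other 6 were not, with 10.2% of all tested genes called. With WT replicate 3 as the only WT library, assumed to vary like the R6/1 libraries, the log2 fold change was 0.31 for Sqstm1 (adjusted p = 0.0508), -0.35 for Atg12 (adjusted p = 0.0518), 0.26 for Lamp1 (adjusted p = 0.0721), 0.44 for Atg7 (adjusted p = 0.0803) and -0.55 for Atg10 (adjusted p = 0.0778). With the covariate it was 0.29 for Sqstm1 (adjusted p = 0.105), -0.35 for Atg12 (adjusted p = 0.0910), 0.26 for Lamp1 (adjusted p = 0.118), 0.44 for Atg7 (adjusted p = 0.120), -0.56 for Atg10 (adjusted p = 0.117) and 0.27 for Ulk1 (adjusted p = 0.189). The sizes of the changes stayed close to those with all libraries.

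**Figure D5:**
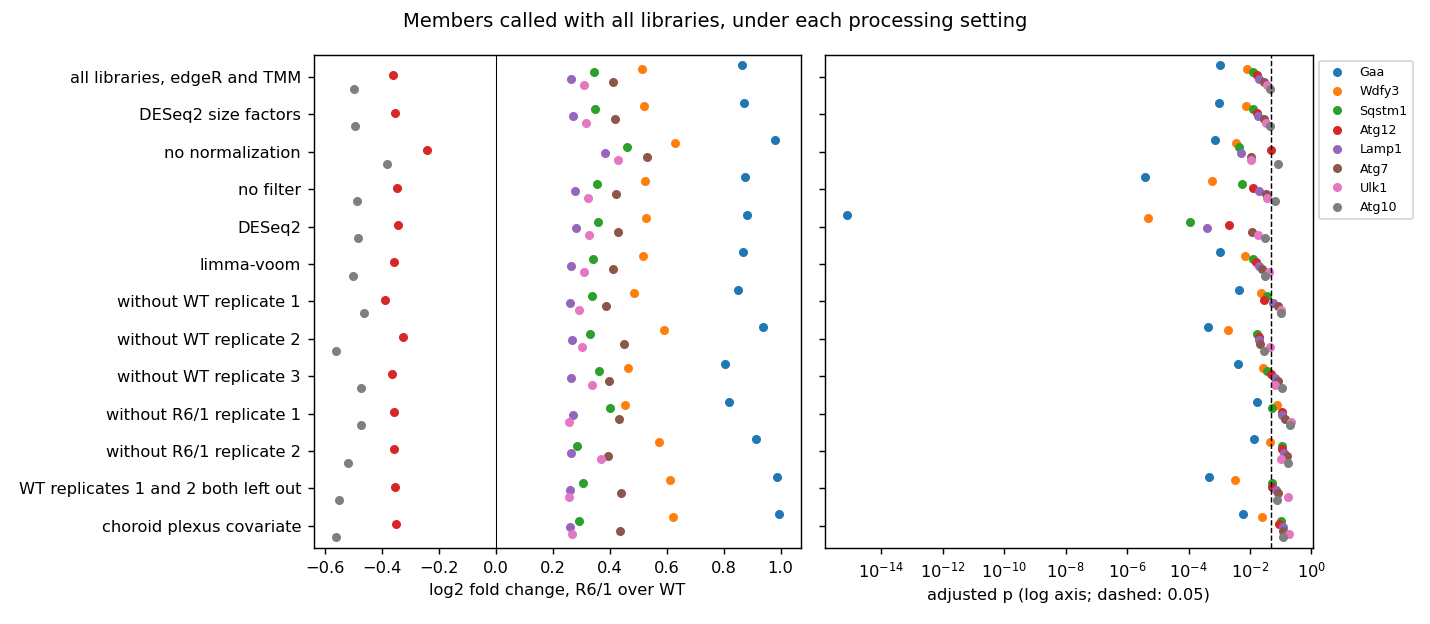
Log2 fold change (left) and adjusted p on a log axis (right) of the 8 called members with all libraries and under the 12 alternatives, 1 row per setting, with a dashed line at 0.05. The fold changes keep their side of 0 in every row, whereas only Gaa stays left of the dashed line throughout; Wdfy3 crosses it in 1 row, without R6/1 replicate 1, at 0.0754.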

How the data were processed

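Striatal total RNA was sequenced after ribosomal RNA depletion with strand-specific libraries, per the labels' protocols. The authors deposited raw counts for 26369 Ensembl genes. Per the submitters' processing notes, the build was mm9 and the tools were DESeq2 1.0.19, HTSeq 0.5.4p3, TopHat 1.4.1 and CASAVA 1.8.2. Per the file headers, the table also holds a normalized signal, with and without division by gene length in kb, used here only to obtain the lengths. The authors' deposited log2 ratios and adjusted p-values are used only for the counts, shares and names of the genes they call. How strand and reads with several matches were handled, and with which annotation, is not given in the sources used here. No row lacked a gene identifier.

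Groups follow the genotype label. Genes were tested with edgeR 4.0.16 in R 4.3.3 (quasi-likelihood F test, TMM, filterByExpr with a minimum count of 10 and minimum total of 15, genotype alone), adjusted by Benjamini-Hochberg over 17202 genes and called below 0.05. Means are given ± SD with n = 2 for R6/1 and n = 3 for WT. SEs and 95% intervals are those implied by the F statistic. Alternatives used DESeq2 1.42.0 and limma 3.58.1 (voom), other scalings and filters, omitted libraries and a choroid plexus covariate. The steps were tested on simulated data. No 2 libraries of a group were alike within sampling noise (chi-square per gene 11.4 to 20.8).

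The members and lists were chosen with earlier results of these data known. Fully described members are those called and, in a role with none, the one with the highest level per kb. Up to 4 genes with the smallest p are named from each other list. Of 162 symbols in those lists, 158 were found as separate genes, some by Ensembl identifier. Any other gene was named with its values in view. No set test was run.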

Additional observations from a re-analysis of the deposited data

How the results depend on the processing

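No paired analysis was possible because the labels give no pairing between the groups: the replicate numbers were given in accession order and only name the libraries. Of 516 values of single members under the 12 alternatives, 470 kept their side of the threshold, 35 lost a call and 11 gained one. Values called in neither fit could change sign among the 470. Rb1cc1, for example, had a log2 fold change of -0.09 with TMM and 0.03 without normalization. Of the values called in either fit, 0 reversed direction. Without normalization, which gave a median log2 fold change of 0.11 over all genes in place of -0.01, 13 members were called higher and 1 lower in R6/1, their median was 0.16 and 46 other pathway genes were called. Higher genes then made up 65.6% of all calls, against 43.1% with TMM. Without a filter 1 member was called lower. Dropping WT replicates 1 and 2 together gave a member median of 0.12. The lone WT library of that fit was assumed to be as variable as R6/1, so only this effect size is given here. With the choroid plexus covariate, 1750 genes were called, 2 members higher (Gaa and Wdfy3), 0 members lower, and 12 other pathway genes, with a member median of 0.11. With 1 library left out in turn, calls ranged from 1088 to 4853 over all genes, from 1 to 8 for higher members, from 0 to 3 for lower members and from 4 to 50 for the other pathway genes, and the member median ranged from 0.0222 to 0.0734. The lowest counts came without an R6/1 library, which leaves 1 library in that group, assumed to vary like WT. Where 0 members were called lower, DESeq2 and edgeR with all libraries each called 2, and 13 members had an unadjusted p below 0.05 in either direction. With DESeq2's size factors, limma-voom or DESeq2, the 8 calls were all kept. The shares of the Atg8 genes moved with the gene length used. The least counted member had 958 reads over the 5 libraries, and depth sets a limit through the width of the intervals.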
